A study of Mus musculus with 6 samples.

Results

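The meiotic recombination genes described here are 9 genes, Spo11, Mei1, Prdm9, Dmc1, Meiob, Spata22, Msh4, Msh5 and Mlh3, whose products make and repair the programmed DNA breaks of meiosis. They were taken by symbol from the annotation of the array, with every probe of a member kept, which gave 15 probes of 8 genes, among the 45281 probes and 19057 gene symbols of the array. No probe of the annotation used here carried the symbol Prdm9, so its transcript was not analysed here. Testis RNA was hybridised from male C57Bl/6 mice aged 4 months, 1 array for each mouse. The WD group held 3 mice (3, 4 and 6), which the labels place on a high-fat diet and the study describes as a Western-like diet, rich in butter and sucrose and given from weaning. The SD group held 3 mice (1, 2 and 5) on standard chow. According to the study, mice showing the strongest effects of the diet were left out of the choice, and the arrayed ones were picked by chance among the rest. The comparison asks whether testis mRNA levels differ after the diet.

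In meiosis, SPO11 cuts both strands of DNA at sites marked by the histone methyltransferase PRDM9, and the ends are trimmed to expose stretches of unpaired strand. The recombinase DMC1 uses these stretches to search the homologous chromosome for a match, and some of the joined intermediates are then matured into crossovers with the help of MSH4, MSH5 and MLH3. In the testis these steps take place in spermatocytes, and arrest of meiosis and infertility are commonly described in mouse males that lack one of these genes.

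The level of a probe is given as its background-corrected, quantile-normalised intensity on the log2 scale. A probe counted as detected in a mouse when its detection p, which sets it against the array's negative controls, was under 0.05, and it was tested when detected on at least 3 of the 6 arrays. Between 19026 and 21309 probes were detected in a mouse, and the raw median intensity ran from 120.1 in WD mouse 6, with the next dimmest array that of SD mouse 5 at 126.2, to 172.5 in SD mouse 1. Markers of the germ line were present, with 13 of 15 spermatocyte and 8 of 10 spermatid markers passing the filter. The probes of the spermatocyte markers Sycp3 and Mybl1 did not pass it. The median tested probe had a within-diet SD of 0.21 and an absolute difference between diets of 0.13.

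No probe of a recombination gene passed the threshold between WD and SD testis. Of the 15 probes, 10 were tested, covering 7 genes, and 0 of these had an adjusted p under 0.05 in limma, with p-values adjusted over all 19763 tested probes. The share over all tested probes was 0%. At an unadjusted p under 0.05, 1 of the 10 passed, against 5.13% of all tested probes. At 1 of the 10 the WD and SD values did not overlap, against 10.2% of all tested probes. Both counts refer to the same probe of Msh5. Of the 10 probes, 7 were higher and 3 lower in WD, with a median difference of 0.08, beside -0.000817 over all tested probes, of which 49.8% were higher in WD. RNA came from whole testis, so fewer cells of a type and less RNA per cell cannot be told apart.

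**Figure D1:**
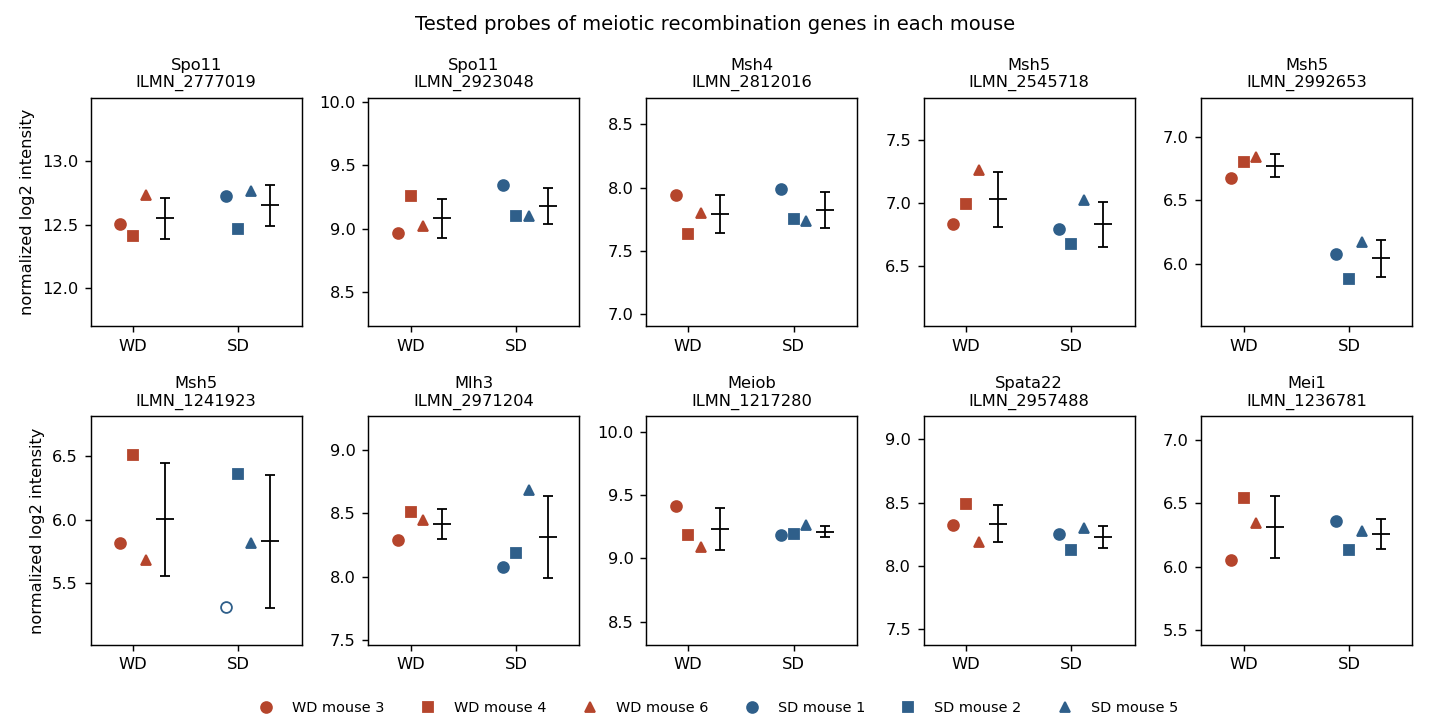
Normalised log2 intensity of the 10 tested probes of meiotic recombination genes in each mouse (WD left, SD right). Each panel spans the same height on the log2 axis, bars give mean ± SD of 3 mice, and the open symbol is a mouse in which the probe was not detected. Of these 10 probes the diets separate at Msh5 ILMN_2992653, where WD mice lie at 6.67 to 6.84 and SD mice at 5.88 to 6.17.

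The promoters of Msh5 and Msh4, whose proteins work as a pair, are shown because Msh5 had the single probe whose diets did not overlap and Msh4 is its partner. These are the 250 bases before each gene's start from RefSeq on GRCm38.p6, written 5′ to 3′ on the minus strand, on which both genes lie. Capitals mark the only match in these bases to the motifs searched, here one of the sequence CNCCTCAG bound by STRA8 and MEIOSIN, the factors that switch on the meiotic programme.
Msh5, chr17:35046623-35046872: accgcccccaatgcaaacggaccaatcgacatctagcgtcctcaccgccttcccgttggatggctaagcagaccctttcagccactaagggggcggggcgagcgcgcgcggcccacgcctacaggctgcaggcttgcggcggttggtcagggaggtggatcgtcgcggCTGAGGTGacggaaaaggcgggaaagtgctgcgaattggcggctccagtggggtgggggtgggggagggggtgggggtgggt
Msh4, chr3:153904892-153905141: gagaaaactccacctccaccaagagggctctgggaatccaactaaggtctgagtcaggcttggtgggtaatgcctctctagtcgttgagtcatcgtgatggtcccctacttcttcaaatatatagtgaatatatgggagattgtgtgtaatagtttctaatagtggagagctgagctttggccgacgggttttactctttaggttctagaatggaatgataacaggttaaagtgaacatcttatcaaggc
The Msh5 window was rich in G and C (67.2%), the Msh4 window less so (43.6%), and the median window of the table was at 52.4%. The match in Msh5, CTGAGGTG, starts at -82 from the gene start and reads as the motif on the opposite strand.

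Over the 300 bases searched, which run from 250 before to 50 after the gene start, CNCCTCAG stood on either strand in 7.94% of 32851 windows, AACNGTC or AACNGTT, the motif of the spermatocyte factor A-MYB, in 12.1%, and the cAMP response element TGACGTCA in 1.79%. Windows were held for 7 of the 9 genes, 9 windows in all, and the genes with no entry were Spo11 and Meiob. Of the 9 windows, 2 held CNCCTCAG, those of Msh5 and Prdm9, and 1 held the A-MYB motif, that of Mei1. None held TGACGTCA. These matches describe letters and were not tested for binding.

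Break formation was followed at probes of Spo11 and Mei1. Spo11, the gene of the nuclease-like subunit that makes the breaks, read 12.50, 12.41 and 12.73 at ILMN_2777019 in WD mice 3, 4 and 6, against 12.72, 12.46 and 12.77 in SD mice 1, 2 and 5. The diets overlapped, as WD mouse 6 lay between SD mice 1 and 5. The mean was 12.55 ± 0.16 in WD and 12.65 ± 0.17 in SD (SD, n = 3 each), a difference of -0.10 (SE 0.15, 95% interval -0.45 to 0.24, adjusted p = 0.969). Differences within this interval remain compatible with these values, and the smallest difference that these arrays could detect was not computed.

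At the second detected Spo11 probe, ILMN_2923048, WD mice read 8.97, 9.26 and 9.02, against 9.345, 9.10 and 9.10 in SD mice. The highest and the lowest mouse came from opposite diets, yet WD mouse 4 exceeded SD mice 2 and 5. The difference was -0.10 again (SE 0.14, interval -0.43 to 0.23, adjusted p = 0.969). The third Spo11 probe, ILMN_2670671, was detected in no mouse, with detection p between 0.516 and 0.958, and was not tested.

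The detected Spo11 probes could be read against each other within each mouse. ILMN_2777019 minus ILMN_2923048 gave 3.54, 3.16 and 3.71 in WD mice, against 3.38, 3.36 and 3.67 in SD mice. These gaps overlapped between diets, and their diet means were -0.003 apart (exact two-sided permutation p = 1). SD mouse 5 was the highest mouse at ILMN_2777019 and SD mouse 1 at ILMN_2923048. The closeness of the diet differences at these probes rested on which mice were included. Without WD mouse 4 they were -0.03 at ILMN_2777019 and -0.19 at ILMN_2923048, and without WD mouse 6 they were -0.19 and -0.07 in the same order. With each mouse left out in turn they ran from -0.196 to -0.033 at ILMN_2777019 and from -0.187 to -0.018 at ILMN_2923048, where the end nearest 0 was reached without SD mouse 1.

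Mei1, needed in the mouse for normal numbers of meiotic breaks, has a single probe, ILMN_1236781, which read 6.05, 6.545 and 6.34 in WD mice, against 6.36, 6.13 and 6.285 in SD mice. WD mice were both the lowest and the highest. The means were 6.31 ± 0.25 in WD and 6.26 ± 0.12 in SD, with a difference of 0.06 (SE 0.16, interval -0.31 to 0.43, adjusted p = 0.981). The difference was -0.06 without WD mouse 4 and -0.01 without SD mouse 2.

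Strand invasion is carried out by DMC1, but its transcript could not be compared. Its only probe, ILMN_2661384, was detected in no mouse, with a detection p of 0.551, 0.916 and 0.46 in WD mice and 0.123, 0.626 and 0.703 in SD mice. The raw intensity was 139.9, 114.5 and 109.1 in WD mice, against 172.6, 128.2 and 108.4 in SD mice. The Dmc1 probe was therefore not well above background in either diet, and no fold is given. The level of the transcript itself is not settled by this probe, as Spo11 and Mlh3 also had undetected probes beside detected ones. 

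MEIOB and SPATA22 bind each other and coat single-stranded DNA together with replication protein A. The Meiob probe ILMN_1217280 read 9.41, 9.18 and 9.09 in WD mice, against 9.18, 9.19 and 9.26 in SD mice. The SD mice were close to each other and lay inside the spread of the WD mice. The means were 9.23 ± 0.17 in WD and 9.21 ± 0.05 in SD, a difference of 0.02 (SE 0.14, interval -0.29 to 0.33, adjusted p = 0.994). The sign of this difference turned to -0.06 with median scaling and -0.03 in the authors' deposited log2 values.

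The Spata22 probe ILMN_2957488 read 8.32, 8.49 and 8.19 in WD mice, against 8.255, 8.13 and 8.30 in SD mice. WD mouse 4 was the highest and SD mouse 2 the lowest, and the diets overlapped. The difference was 0.11 (SE 0.14, interval -0.21 to 0.42, adjusted p = 0.965). Leaving out WD mouse 4 gave 0.03, SD mouse 2 gave 0.06, WD mouse 6 gave 0.18, and mice 5 and 6 together gave 0.22. With median scaling it was 0.03, and in the deposited log2 values 0.07. Across mice the partner genes did not share the same extremes, as Meiob was highest in WD mouse 3 and lowest in WD mouse 6.

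MSH4 and MSH5 form a clamp on joined DNA that protects future crossovers. The Msh4 probe ILMN_2812016 read 7.94, 7.63 and 7.80 in WD mice, against 7.99, 7.75 and 7.735 in SD mice. The lowest mouse was WD mouse 4, the highest SD mouse 1, and the others were mixed. The means were 7.79 ± 0.15 in WD and 7.82 ± 0.14 in SD, a difference of -0.03 (SE 0.14, interval -0.37 to 0.30, adjusted p = 0.987). It was 0.05 without WD mouse 4 and 0.05 without SD mouse 1.

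Msh5 had 4 probes, and one of them stood apart. ILMN_2992653 read 6.67, 6.80 and 6.84 in WD mice, against 6.08, 5.88 and 6.17 in SD mice. Each WD mouse was above each SD mouse, by a gap wider than the spread within either diet. The mean was 6.77 ± 0.09 in WD and 6.04 ± 0.15 in SD, a difference of 0.73 (SE 0.14, interval 0.42 to 1.04), or 1.66-fold (1.34 to 2.06). The probe ranked 5 of 19763 by p, and its adjusted p was 0.801, which did not pass the threshold. Its precision depended on the variance model. With a variance that follows the level of the probes, the SE was 0.21 and the unadjusted limma p 0.00299, against 0.000622 in the main setting.

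**Figure D2:**
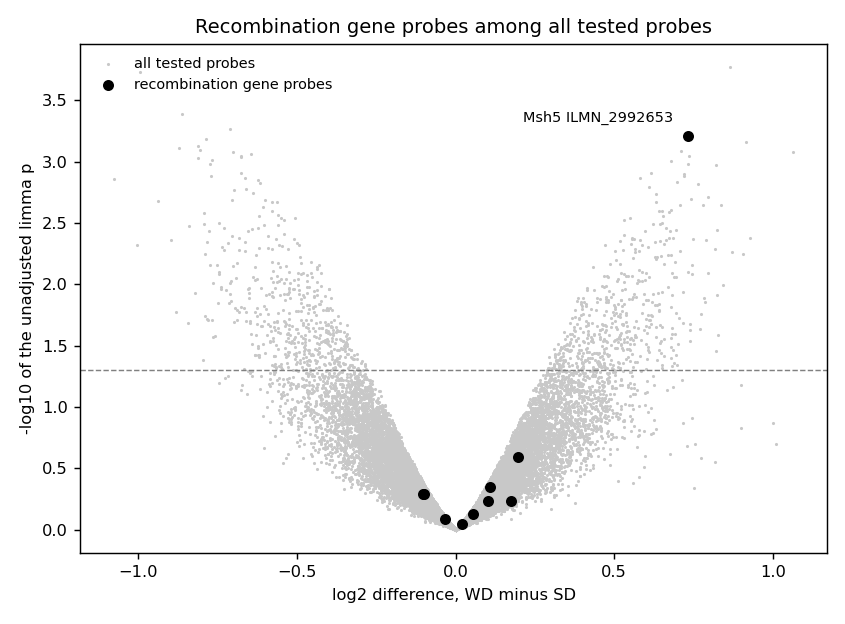
Log2 difference, WD minus SD, against the -log10 of the unadjusted limma p for all 19763 tested probes (grey) and the 10 probes of recombination genes (black). The dashed line marks an unadjusted p of 0.05, which Msh5 ILMN_2992653 exceeds with a difference of 0.73, while the other 9 probes lie below it.

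Before normalisation the separation of the diets at this probe was not visible. Its raw intensity was 235.5, 226.0 and 185.0 in WD mice, against 216.6, 184.0 and 159.8 in SD mice, which overlap. Divided by the median intensity of the same array, it was 1.48, 1.54 and 1.54 in WD mice, against 1.26, 1.21 and 1.27 in SD mice. Relative to its own array the probe was thus brighter in every WD mouse. Its detection p reached 0.0171 in SD mouse 2, and it was detected on all 6 arrays.

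The size of the Msh5 difference depended on how the background was treated. It was 0.31 with quantile normalisation and no background correction, 0.29 with median scaling and 0.32 in the authors' deposited log2 values. It was 0.52 with an offset of 50 in place of 16. Leaving out 1 mouse at a time gave 0.65 to 0.80, and leaving out mice 5 and 6, whose arrays were the dimmest, gave 0.77. WD stayed above SD in all of these, and an adjusted p under 0.05 was reached in none.

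The other Msh5 probes did not separate the diets. ILMN_2545718, annotated to a cDNA record in place of the reference transcript, read 6.83, 6.99 and 7.26 in WD mice, against 6.80, 6.67 and 7.02 in SD mice. SD mouse 5 lay above WD mice 3 and 4, so the diets overlapped. The difference was 0.20 (SE 0.16, interval -0.175 to 0.57, adjusted p = 0.944). It was 0.08 without WD mouse 6, 0.12 without SD mouse 2, 0.07 with median scaling, 0.10 with no background correction and 0.11 in the authors' deposited log2 values.

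ILMN_1241923 was the most variable of these 10 tested probes, at 5.82, 6.51 and 5.68 in WD mice, against 5.31, 6.36 and 5.81 in SD mice. SD mouse 1, with a detection p of 0.0598, was the single mouse in which it was not detected. WD mouse 4 and SD mouse 2 were high together, and the other mice were low in both diets. The difference was 0.17 (SE 0.30, interval -0.52 to 0.87, adjusted p = 0.972). It was -0.08 without WD mouse 4 and -0.08 without SD mouse 1. The fourth probe, ILMN_2636175, was detected in WD mouse 3 and SD mouse 5 alone and was not tested.

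The gaps between Msh5 probes were compared within each mouse. A mean gap difference between diets follows from the diet differences of its probes, so it adds no separate evidence on the diet. ILMN_2545718 minus ILMN_2992653 was 0.16, 0.19 and 0.415 in WD mice, against 0.72, 0.79 and 0.85 in SD mice. The gap was smaller in every WD mouse, by 0.53 on average (difference -0.53, exact two-sided permutation p = 0.1, the smallest that 3 against 3 mice allow, and 0.4 after adjustment over the 4 probe pairs compared). ILMN_2992653 minus ILMN_1241923 differed by 0.56 (exact permutation p = 0.3) and ILMN_2545718 minus ILMN_1241923 by 0.02 (exact permutation p = 1), both with overlapping diets. On GRCm38.p6 the gene Msh5 overlaps the long non-coding RNA gene Gm52318, and probe sequences were not used here, so which part of the transcript each probe reads is not given.

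**Figure D3:**
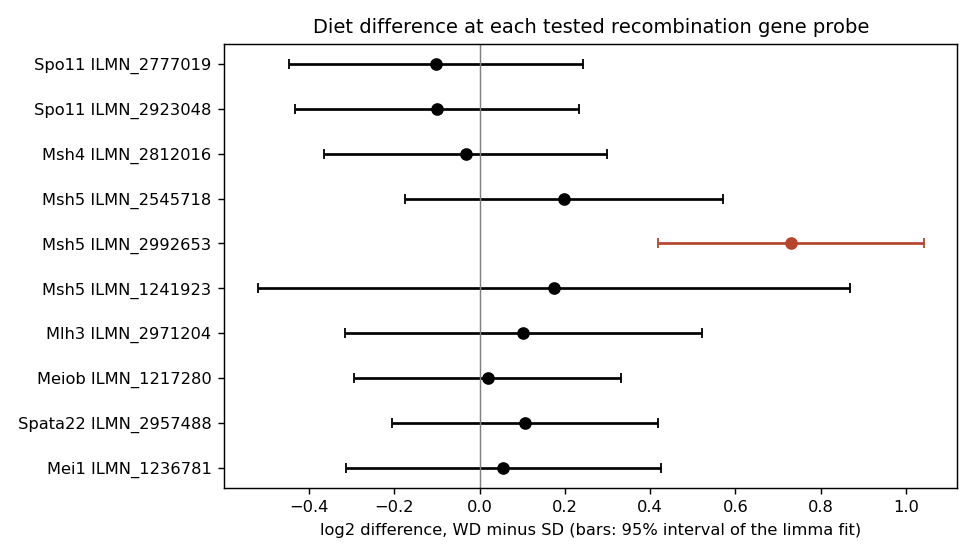
Log2 difference, WD minus SD, at each tested probe of a recombination gene, with bars for the 95% interval of the limma fit. The interval of Msh5 ILMN_2992653 runs from 0.42 to 1.04, and the intervals of the other 9 probes include 0.

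Mlh3, which encodes an endonuclease subunit needed for crossovers, was measured at 1 of its 3 probes. ILMN_2971204 read 8.29, 8.515 and 8.45 in WD mice, against 8.075, 8.18 and 8.68 in SD mice. The SD mice were both the lowest and the highest, and the WD mice lay between them. The means were 8.42 ± 0.12 in WD and 8.31 ± 0.32 in SD, a difference of 0.10 (SE 0.18, interval -0.315 to 0.52, adjusted p = 0.972). It was -0.01 without SD mouse 1. Of the remaining probes, ILMN_2500573 was detected in SD mouse 5 alone (detection p 0.00962) and ILMN_2743910 in no mouse.

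The 95% intervals of the 10 comparisons were between 0.624 and 1.39 wide on the log2 scale, with a median width of 0.678, and the widest was that of Msh5 ILMN_1241923. The median within-diet SD of these probes was 0.157, beside 0.206 over all tested probes. Their median absolute difference between diets was 0.102, beside 0.127 over all tested probes.

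**Figure D4:**
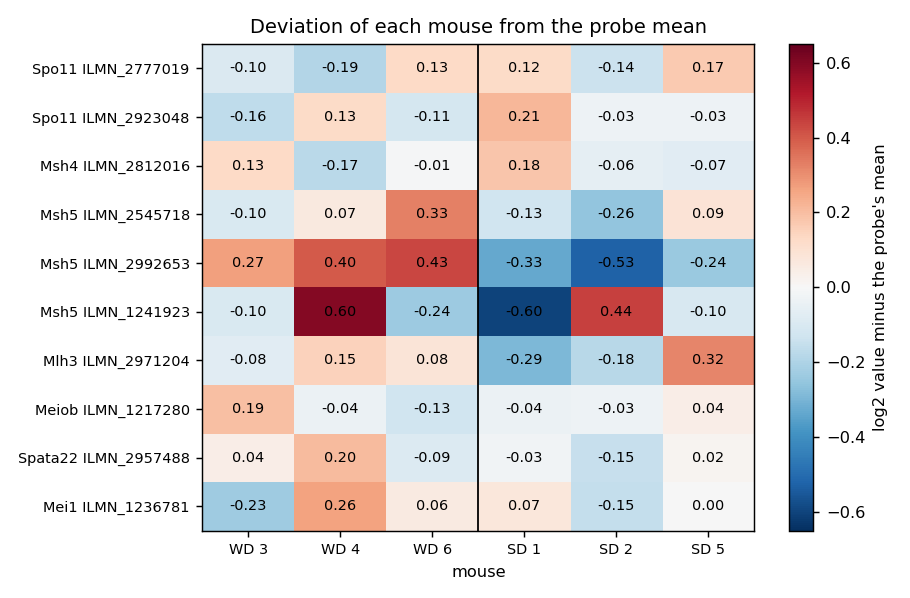
Deviation of each mouse from the mean of the 6 mice, in log2 units, at each tested probe, with WD mice left of the line and SD mice right of it. SD mouse 2 was below the mean at 9 of 10 probes, and only the row of Msh5 ILMN_2992653 has one sign in each diet.

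Among themselves the genes showed no ordering of mice that followed the diet. WD mouse 4 was above the probe mean at 7 of 10 probes, WD mouse 6 at 5 and WD mouse 3 at 4. SD mouse 5 was above it at 5, SD mouse 1 at 4 and SD mouse 2 at 1. The median deviation ran from -0.09 in WD mouse 3 to 0.14 in WD mouse 4, and from -0.145 in SD mouse 2 to 0.01 in SD mouse 5, so that the ranges of the diets overlapped.

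Other genes of the pathway were described with 5 lists of 81 genes in all, each gene read at its brightest tested probe. Of these, 64 had a probe and 50 a tested one. In WD, 29 were higher and 21 lower, with 0 at an adjusted p under 0.05, and the smallest adjusted p was 0.935. At an unadjusted p under 0.05 there were 0 of the 50 (limma), beside 4.55% of all 11264 genes. The median difference was 0.02, beside 0.01 over all genes, of which 51.7% were higher in WD.

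In the list of break formation and hotspot marking, 4 of 10 genes were tested and all 4 differences were above 0, with a median of 0.06. They ran from 0.001 at Rec114, which acts with the break machinery, to 0.11 at Zcwpw1, a reader of the PRDM9 mark. Zcwpw1 averaged 7.73 ± 0.04 in WD and 7.62 ± 0.47 in SD, so that the difference was smaller than the spread of the SD mice. In end resection and signalling, 13 of 18 genes were tested, 9 higher and 4 lower in WD, with a median of 0.03. Rad50, of the complex that processes breaks, had 9.23 ± 0.16 in WD and 8.98 ± 0.28 in SD, and Brca1, which acts in repair by homologous recombination, 6.70 ± 0.53 in WD and 7.25 ± 0.27 in SD (difference -0.55, adjusted p = 0.935).

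In the list of strand exchange, 20 of 26 genes were tested, 9 higher and 11 lower in WD, with a median of -0.03. The ends of the range were Rad54b, a motor protein that assists the recombinases, at 10.63 ± 0.07 in WD and 10.35 ± 0.20 in SD (difference 0.275, adjusted p = 0.935), and the helicase-like gene Mcm9 at 5.29 ± 0.54 in WD and 5.675 ± 0.58 in SD (difference -0.38, adjusted p = 0.951). The values of Rad54b and Mcm9 overlapped between diets, as did those of all other genes of this list.

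In crossover formation, 9 of 22 genes were tested, 5 higher and 4 lower in WD, with a median of 0.04. Top3a, a topoisomerase that unlinks joined DNA, averaged 7.59 ± 0.26 in WD and 7.34 ± 0.36 in SD, and Prr19, which acts in crossover formation in the mouse, 10.265 ± 0.28 in WD and 10.40 ± 0.25 in SD. The single pathway gene whose diets did not overlap was Cdk2, the kinase found at crossover sites, named after its values were seen, with 12.06 ± 0.03 in WD and 11.88 ± 0.03 in SD (difference 0.18, adjusted p = 0.935). This was 1 of 50 genes, against 10.2% of all tested probes whose diets did not overlap. That share, also set beside the marker lists below, counts probes and was not computed over genes. Among the relatives in mismatch repair, 4 of 6 genes were tested, 2 higher and 2 lower in WD. They ran from Pms1 at 5.615 ± 0.31 in WD and 6.03 ± 0.73 in SD to Pms2, a mismatch repair gene, at 6.90 ± 0.13 in WD and 6.73 ± 0.45 in SD.

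Markers of cell types gave a view of the mixture of cells behind these values. Of the 13 tested spermatocyte markers, 3 were higher and 10 lower in WD, 0 passed the threshold, and the median difference was -0.07. The recombination genes act in spermatocytes, but this list was not divided by stage of meiosis. At 2 of the 13 the diets did not overlap, Rec8 being lower (-0.27) and Piwil1 higher (0.11) in WD, against 10.2% of all tested probes. The summed normalised intensity of the 13 was 114000 to 119000 in WD mice and 112000 to 119000 in SD mice. This sum is weighted to the brightest markers, Ldhc and Pgk2 (means of 15.706 and 14.635 in WD), and says little about the dimmer ones. The 8 tested spermatid markers had a median difference of 0 and the 7 tested spermatogonia markers one of 0.04.

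In 4 lists of other cells the summed level was higher in every WD mouse than in every SD mouse. How often sums of other genes separate the diets in this way was not tested. The summed intensity of the 4 tested of 6 macrophage markers was 1110 to 1620 in WD mice and 909 to 972 in SD mice. For the 5 tested of 8 Sertoli cell markers it was 2810 to 3710 in WD mice and 2680 to 2780 in SD mice, and for the 4 tested of 5 peritubular and endothelial markers 3120 to 3630 in WD mice and 2490 to 2850 in SD mice. For the 3 tested of 4 red blood cell markers it was 885 to 989 in WD mice and 765 to 855 in SD mice. The sums weigh the brighter probes more, and single markers were mixed. Of the tested markers, 4 of 4 in the macrophage list, 5 of 5 in the Sertoli list, 3 of 4 in the peritubular and endothelial list and 2 of 3 in the red blood cell list were higher in WD, and the diets did not overlap at 1, 2, 2 and 1 of them in this order, against 10.2% of all tested probes. The endothelial marker Tek (difference -0.05) and the haemoglobin gene Hbb-b2 (-0.28) were lower in WD. None of the tested markers of these lists had an adjusted p under 0.05 (limma). At an unadjusted p under 0.05 stood the macrophage marker Mrc1 and the smooth muscle genes Acta2 and Myh11 of the peritubular list, against 4.55% of all genes. The summed intensity of the 5 tested of 6 Leydig cell markers overlapped between diets, at 44000 to 59200 in WD mice and 41200 to 47600 in SD mice. Of these 5 markers, 3 were higher and 2 lower in WD, and Hsd3b1, an enzyme of steroid synthesis, had an unadjusted p under 0.05 and no overlap, at 8.84 ± 0.24 in WD and 8.30 ± 0.12 in SD (difference 0.545, adjusted p = 0.872). The Sertoli marker Amh, the macrophage marker C1qa and the endothelial marker Pecam1 had probes that did not pass the detection filter. WD mouse 3 had the highest median deviation for the Sertoli (0.24), macrophage (0.39) and Leydig (0.39) lists. The part of these cells in the Msh5 result was not tested.

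The genes whose profile over the 6 mice was nearest to a member, each profile taken as its deviation from its own mean, were found among 11263 other genes by the root mean square difference. As the smallest of 11263 values over 6 mice, each nearest distance lies below the median by construction, and its size was not tested. For Spo11 the nearest gene was Fam3b, a secreted protein gene, at 0.0266, where the median gene was at 0.231. Fam3b read 9.63, 9.60 and 9.92 in WD mice, against 9.915, 9.66 and 9.95 in SD mice, and so shared the high values of WD mouse 6 and SD mice 1 and 5. The nearest gene was Chmp5 for Msh4 (0.0343), Becn1 for Msh5 at ILMN_2545718 (0.0504), Casr for Mlh3 (0.0296), Ap1ar for Meiob (0.0227), Dtymk for Spata22 (0.032) and 4921536K21Rik for Mei1 (0.0228). None of these nearest genes is a member or stands in the pathway lists.

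**Figure D5:**
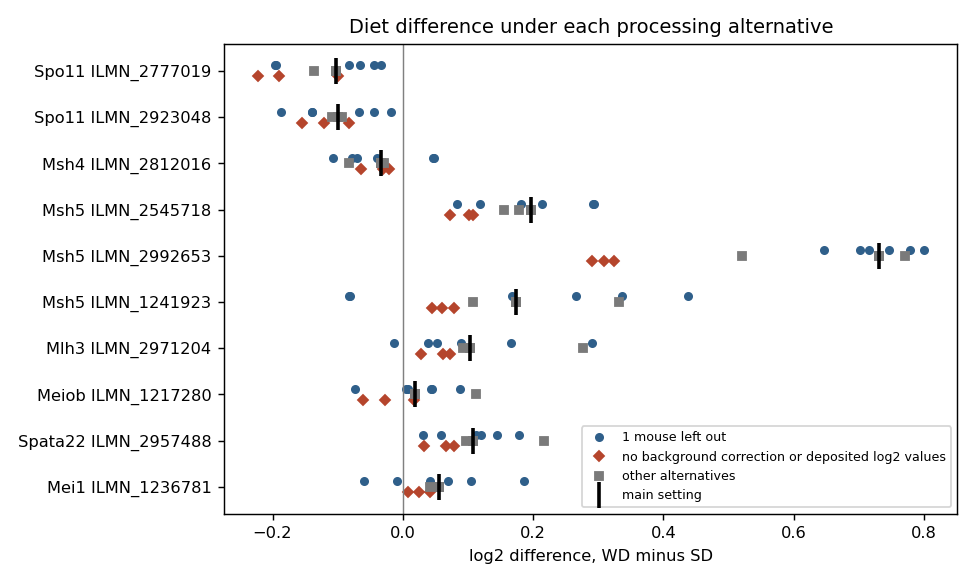
Log2 difference, WD minus SD, at each tested probe under the main setting (black bar), with 1 mouse left out (circles), with no background correction or the deposited log2 values (diamonds) and under the other alternatives (squares). Msh5 ILMN_2992653 stays above 0 at 0.29 to 0.80, and 5 of the 10 probes have values on both sides of 0.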

How the data were processed

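Testis RNA of 6 mice (3 WD, 3 SD) was measured on Illumina BeadChips of type MouseWG-6 v2.0, 1 array for each mouse. The authors deposited linear bead intensity values exported from GenomeStudio (version not given in the sources used here), without background subtraction or scaling between arrays. The deposited detection column rises with intensity and was taken as a score, with the detection p given by 1 minus it. The authors also deposited log2 values, which equal the log2 intensity minus each array's upper quartile and a value for each probe common to all arrays, whose origin is unknown. Their medians were -0.01196, 0 and 0.007596 in WD mice 3, 4 and 6, and -0.01725, -0.05636 and 0.001854 in SD mice 1, 2 and 5.

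Intensities were corrected and quantile normalised with neqc of limma 3.58.1 (R 4.3.3, offset 16). Probes with a detection p under 0.05 on at least 3 of 6 arrays were tested, 19763 in all. WD minus SD was fitted with lmFit and eBayes over all tested probes, with Benjamini-Hochberg adjustment over all of them. The procedure was tested on simulated data with changes larger than any difference at a recombination gene probe. That test therefore does not show whether differences of the size seen here can be found. The p-values measure the spread between these mice, and the number of arrays limits their precision. Gene symbols came from the platform annotation, in which 34885 probes had 1 symbol, 18 several and 10378 none. The files name no genome build, so positions of the genes are not given, and promoter positions are those of the RefSeq table on GRCm38.p6.

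The members, gene lists and tests were chosen with earlier results of these data known. The genes named from the lists are the tested gene with the highest and the one with the lowest difference of each. The 15 alternatives covered background correction, scaling, the deposited values, the offset, the filter, the variance trend, a block or removal of mice 5 and 6, and each mouse left out.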

Additional observations from a re-analysis of the deposited data

How the results depend on the processing

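Across 15 alternatives 0 probes passed the adjusted threshold, and of 148 values of single recombination gene probes 138 kept their direction and 10 reversed. Outside the removal of single mice, the reversals were those of Meiob, at -0.061 with median scaling and -0.027 in the authors' deposited log2 values. Median scaling also left 34.3% of all tested probes higher in WD, against 49.8% in the main setting, with a median of -0.05 over all probes, and the deposited values left 45%. With each mouse left out in turn, differences ran from -0.074 to 0.087 at Meiob, the lowest without WD mouse 3, from -0.107 to 0.048 at Msh4, from -0.083 to 0.438 at Msh5 ILMN_1241923, from -0.06 to 0.186 at Mei1 and from -0.014 to 0.291 at Mlh3. Both Spo11 probes, Spata22 and the remaining 2 tested Msh5 probes kept their direction under every alternative that tested them. The count of recombination gene probes at an unadjusted p under 0.05 was 1 in the main setting and 0 under the stricter filter (detection p under 0.01 on all 6 arrays), which tests 8 of the 10 probes and leaves out Msh5 ILMN_2992653. Over all probes that count was 1013, and 2213 with no filter, 1558 without mice 5 and 6, and 766 to 1570 with 1 mouse left out. Detected on all 6 arrays were 9 of the 15 probes at a detection p under 0.05 and 8 at 0.01. Dim probes limit these comparisons, as 5 of 15 probes were too close to background to test. No paired analysis was possible because no mouse number occurs in both diets.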
